A study of Homo sapiens with 9 samples.

Results

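The genes described here make cholesterol and fatty acids, sense sterols or export them. They were chosen by symbol: 38 genes were listed, and the platform's annotation names 36 of them on 47 of the 22177 probes. Of these, 35 passed the filter on dim probes and were tested among 11228 genes. The single probe of STARD4, a sterol carrier, was detected on 0 of 9 arrays, and FDFT1 and NR1H2 were not analysed here. The list holds 7 genes of the mevalonate pathway, 10 that lead on to cholesterol, 5 regulators, 2 genes of sterol transport, 7 of fatty acid synthesis and 4 around the liver X receptor (LXR), counting those tested.

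Cells build cholesterol from acetyl-CoA through mevalonate, isoprenoids, squalene and lanosterol. When sterols in the endoplasmic reticulum are low, SCAP escorts the sterol regulatory element-binding proteins (SREBPs, made from SREBF1 and SREBF2) to the Golgi, where they are cut and released to switch on these enzymes, while INSIG proteins hold SCAP back when sterols are plentiful. LXRs are nuclear receptors for oxysterols that turn on genes of cholesterol export. Dividing leukaemia cells use both routes of lipid synthesis for membranes.

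Bead-array expression was measured in NB4, an acute promyelocytic leukaemia line, K562, an erythroid line from chronic myeloid leukaemia in blast crisis, and U937, a monocytic line. Each line gave 1 array with SAHA, 1 with MS-275 and 1 from untreated cells, so there were 3 arrays per treatment and the lines served as replicates. SAHA (vorinostat), a hydroxamate, and MS-275 (entinostat), a benzamide with a preference for class I enzymes, block histone deacetylases, and both were given at 5 µM for 6 h. All cells grew in RPMI with serum. Both inhibitors came in DMSO, and the labels do not say whether untreated cells received it, so the solvent and the inhibitors cannot be told apart. The labels call K562 an AML line.

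Values are log2 bead intensities, background-corrected and quantile-normalized, and values on 3 arrays are given in the order NB4, K562, U937. Arrays detected 11826 to 12705 probes (53.3 to 57.3%), and their median raw intensities ran from 104 to 139. The number of arrays limits the precision: the median standard error (SE) of a log2 change was 0.17 over all genes. The fetal and embryonic globin probes HBG1 and HBE1 lay at 14.68 to 14.98 in K562 and at 6.28 or below in the other lines, and MPO was detected on 3 of 3 arrays in NB4 and on 0 of 3 in each other line. ELANE, listed as an NB4 marker, was high in U937 (14.62 to 14.74) and low in NB4 (5.13 to 5.85), so the granule protease genes did not separate these lines as labelled. PRTN3 and AZU1, also listed for NB4, were likewise higher in U937 than in NB4, and CEBPE overlapped between these lines. Of the listed U937 markers, LYZ (12.84 to 13.43) and CD4 (8.78 to 9.22) were highest in U937. CD68 overlapped with K562, and CSF1R overlapped with NB4. CDKN1A, a gene that deacetylase inhibitors commonly raise, was 3.20 ± 0.30 higher with SAHA and 3.18 ± 0.30 higher with MS-275 (log2, SE), and the inhibitors differed by 0.02 there (SAHA minus MS-275, 95% interval −0.69 to 0.73). In bulk RNA, a change in the share of cells that express a gene and a change per cell cannot be told apart.

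SREBPs are known to bind sterol response elements and E-boxes, often near CCAAT and GC boxes, so promoters that hold such letters are shown first. RefSeq windows of 250 bases before the transcript start (GRCh38.p14) were matched by symbol for 31 of the 35 tested members. In the lines that follow, read 5′ to 3′ on the gene's strand, capitals mark TCACNCCA (the sterol response element core), CACGTG (an E-box) and CCAAT on either strand, and no base fell in more than 1 of these motifs. The windows shown are 6 of those with a TCACNCCA or CACGTG match. INSIG1, MVK, MSMO1 and SC5D rose with SAHA, ABCA1 rose with MS-275, and SREBF2 did not pass the test with either inhibitor. The windows lie at chr7:155297628-155297877 (+ strand) for INSIG1, chr12:109573544-109573793 (+ strand) for MVK, chr4:165327419-165327668 (+ strand) for MSMO1, chr11:121292521-121292770 (+ strand) for SC5D, chr9:104928156-104928405 (− strand) for ABCA1 and chr22:41832855-41833104 (+ strand) for SREBF2.
INSIG1: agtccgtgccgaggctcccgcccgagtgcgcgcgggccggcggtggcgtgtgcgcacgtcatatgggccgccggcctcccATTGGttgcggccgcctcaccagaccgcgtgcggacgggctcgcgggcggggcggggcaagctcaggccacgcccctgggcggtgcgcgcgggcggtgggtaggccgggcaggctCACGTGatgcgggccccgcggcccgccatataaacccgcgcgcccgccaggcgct
MVK: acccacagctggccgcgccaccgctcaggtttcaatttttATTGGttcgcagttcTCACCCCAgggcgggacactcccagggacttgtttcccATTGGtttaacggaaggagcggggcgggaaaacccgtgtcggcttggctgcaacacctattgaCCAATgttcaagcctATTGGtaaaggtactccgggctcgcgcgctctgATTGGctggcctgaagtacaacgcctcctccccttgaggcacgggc
MSMO1: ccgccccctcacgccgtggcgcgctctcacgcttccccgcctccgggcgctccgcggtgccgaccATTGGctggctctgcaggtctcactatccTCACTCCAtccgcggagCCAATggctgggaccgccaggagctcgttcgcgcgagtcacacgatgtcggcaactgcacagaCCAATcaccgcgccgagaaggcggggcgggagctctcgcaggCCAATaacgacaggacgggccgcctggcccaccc
SC5D: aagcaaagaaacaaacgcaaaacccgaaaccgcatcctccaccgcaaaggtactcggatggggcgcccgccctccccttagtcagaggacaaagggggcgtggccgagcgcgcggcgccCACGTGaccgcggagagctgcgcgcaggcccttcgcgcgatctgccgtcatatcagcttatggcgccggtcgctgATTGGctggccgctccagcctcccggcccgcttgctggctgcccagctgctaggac
ABCA1: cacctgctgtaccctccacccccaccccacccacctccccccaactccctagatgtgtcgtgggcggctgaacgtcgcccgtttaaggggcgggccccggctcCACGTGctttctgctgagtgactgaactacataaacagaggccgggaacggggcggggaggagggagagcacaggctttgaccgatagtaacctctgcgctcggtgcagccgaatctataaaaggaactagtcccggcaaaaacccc
SREBF2: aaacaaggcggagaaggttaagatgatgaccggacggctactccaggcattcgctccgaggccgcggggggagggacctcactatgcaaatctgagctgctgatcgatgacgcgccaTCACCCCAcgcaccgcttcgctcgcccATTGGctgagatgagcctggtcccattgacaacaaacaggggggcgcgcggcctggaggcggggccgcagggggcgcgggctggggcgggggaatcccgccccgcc

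The core TCACNCCA stood in 3 of 31 member windows (9.68%), those of MVK, MSMO1 and SREBF2, and in 2 of 13 windows of genes that rose with SAHA (15.4%), against 2.47% of 9259 tested genes with a window. The longer classical sterol response element was in 1 member window, that of SREBF2 (3.23%), and in 0 of 13 of genes that rose with SAHA, against 0.0432% of tested genes. CACGTG was found in 4 member windows (12.9%), those of SC5D, SCAP, INSIG1 and ABCA1, and in 2 of 13 of genes that rose with SAHA (15.4%), against 8.87% of tested genes. CCAAT was present in 18 member windows (58.1%) and in 10 of 13 windows of genes that rose with SAHA (76.9%), against 35.7% of tested genes. GGGCGG, the GC box, which is not in capitals above, was in 28 member windows (90.3%) and in 12 of 13 of genes that rose with SAHA (92.3%), against 65.3% of tested genes. Over 27305 genes with a window, tested or not, these shares were 3.18% for TCACNCCA, 6.49% for CACGTG, 33.0% for CCAAT and 42.3% for GGGCGG. These matches are descriptions of short letters in a short window, and no test was made of them.

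With SAHA, 14 of 35 members rose and 1 fell, where 23.7% of all tested genes passed the test in either direction (12.0% upward and 11.8% downward). The median log2 change was 0.48 over the members and −0.01 over all 11228 genes. By role, 3 of 7 mevalonate genes, 7 of 10 genes from squalene to cholesterol, 3 of 5 regulators and 1 of 4 genes of the LXR group (MYLIP) rose. The 7 fatty acid genes had 1 fall and no rise. Higher values in all 3 lines were found for 23 members (65.7%), against 28.4% of genes, and all SAHA levels lay above all untreated levels for 9 members (25.7%), against 7.52% of genes. Lower values in all 3 lines were found for 4 members (11.4%), against 29% of genes, and no member had all SAHA levels below all untreated ones, against 8.5% of genes. With 1 line left out, the 15 members past the test became 6 without NB4, 13 without K562 and 10 without U937. Over all genes, the 2665 calls became 887, 1681 and 1069 in the same order.

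With MS-275, 3 of 35 members rose and 1 fell, where 11.8% of all tested genes passed the test (4.34% upward and 7.46% downward). The members' median log2 change was 0.11, against −0.02 for all genes. The 3 that rose, NR1H3, ABCA1 and MYLIP, all stand in the LXR and efflux group, and the one that fell, NSDHL, is a sterol enzyme. In all 3 lines, 16 members (45.7%) were higher and 5 (14.3%) lower, against 24.4% and 29.8% of genes. All MS-275 levels lay above all untreated levels for 1 member, MYLIP (2.86%), against 3.19% of genes. With NB4 or U937 left out, 0 members passed in limma (4 and 6 at an unadjusted p under 0.05), and with K562 out, 3 passed. Over all genes, the 1325 calls became 2 without NB4, 237 without K562 and 0 without U937. Both comparisons use the same untreated arrays, so their values are set side by side without a test of likeness.

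Between the inhibitors, 12 members were higher with SAHA than with MS-275 and 3 were lower, where 23.6% of all tested genes passed (13.4% upward and 10.2% downward). The median difference, SAHA minus MS-275, was 0.32 on the log2 scale over the members and −0.01 over all genes. Of the 14 members that rose with SAHA, 11 also passed this direct test, and MSMO1, EBP and MYLIP did not. This test and the one against untreated cells use the same SAHA arrays, so the overlap is not independent support. The matching share over all genes was not counted. SAHA was higher in all 3 lines for 21 members (60.0%) and lower in all for 8 (22.9%), against 28.3% and 27.5% of genes. All SAHA levels lay above all MS-275 levels for 7 members (20.0%), against 9.02% of genes, and below them for 0, against 5.31% of genes. The 15 members past the test became 4 without NB4, 12 without K562 and 5 without U937. Over all genes, the 2649 calls became 834, 1724 and 511 in the same order.

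**Figure D1:**
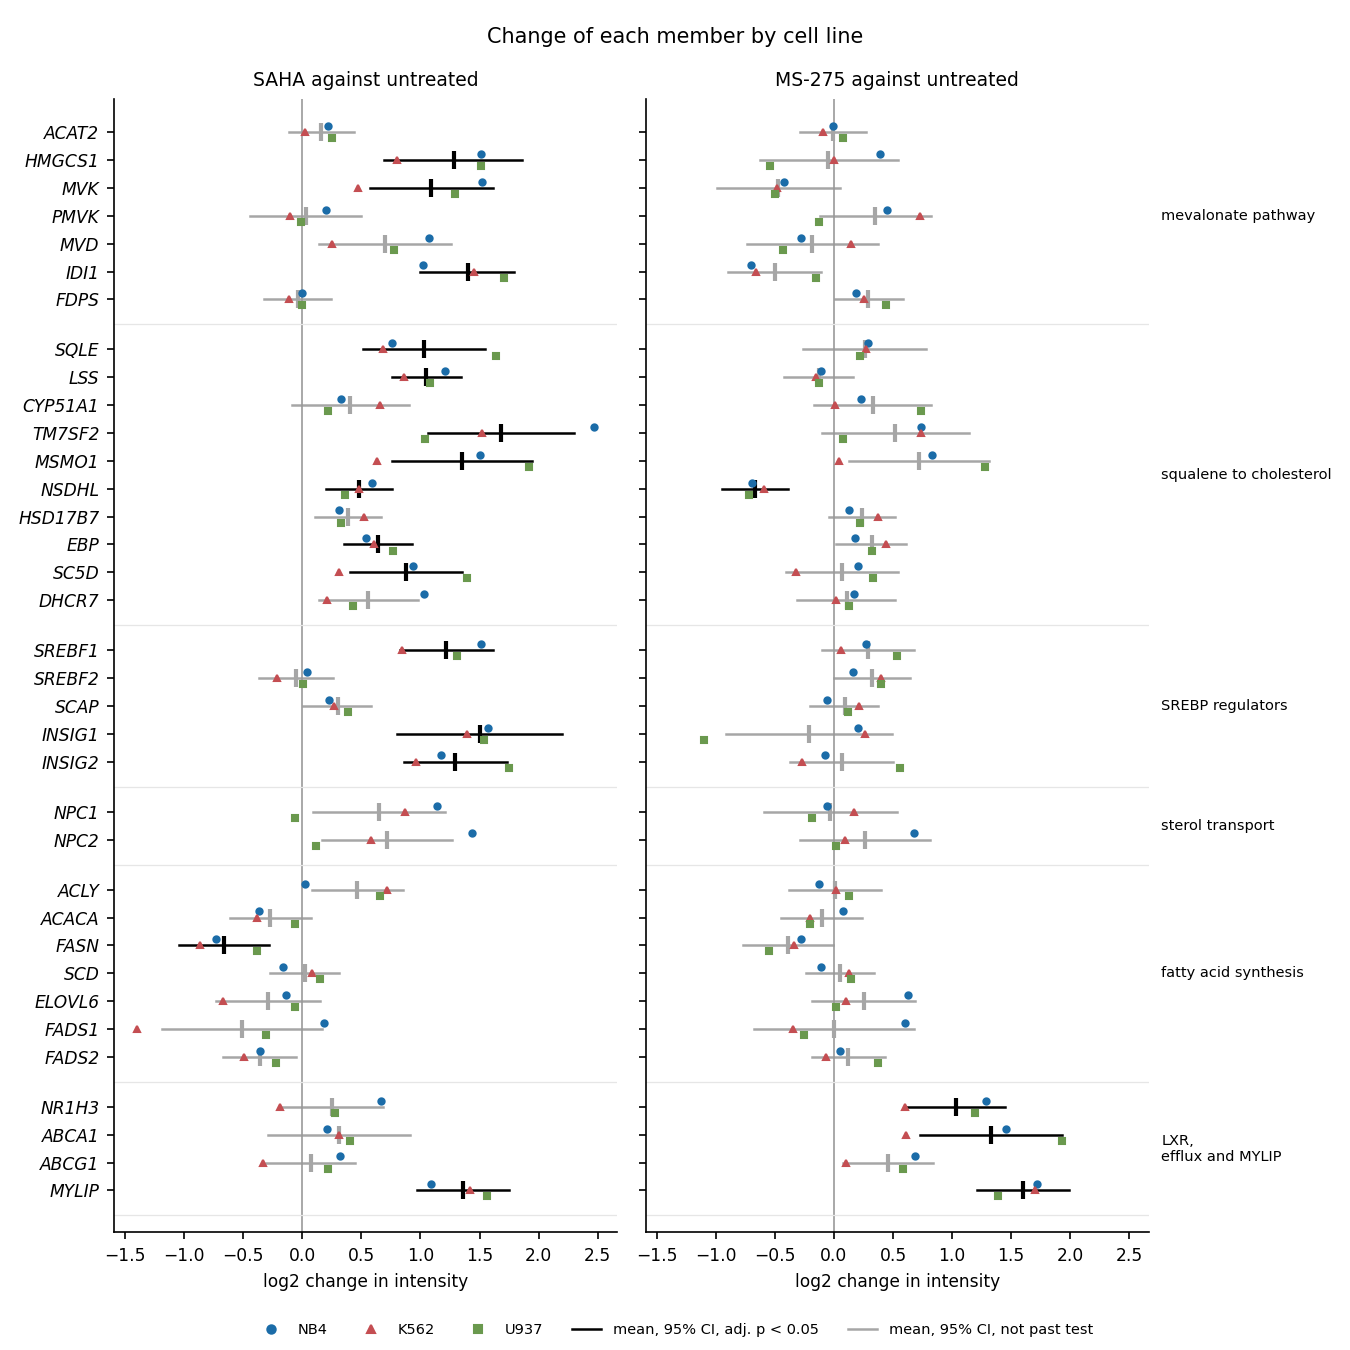
Log2 change of each of the 35 tested members with SAHA (left) and MS-275 (right) against untreated cells; markers are the 3 lines, the vertical tick is the fitted mean and the bar its 95% confidence interval, black where the limma adjusted p is under 0.05. Most sterol genes sit to the right of 0 with SAHA, with TM7SF2 reaching 2.47 in NB4, whereas with MS-275 the black bars are NSDHL below 0 and NR1H3, ABCA1 and MYLIP above it.

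The mevalonate pathway starts from acetyl-CoA, and HMGCS1, which condenses acetyl-CoA with acetoacetyl-CoA to HMG-CoA, had levels of 12.53, 12.54 and 11.30 with SAHA, 11.41, 11.74 and 9.25 with MS-275, and 11.01, 11.74 and 9.79 in untreated cells. Every line was higher with SAHA than with either other treatment, but the groups overlapped because U937 lay below the other lines throughout. The rise with SAHA was 2.42-fold (log2 1.28 ± 0.25 SE, limma adjusted p = 0.0115), and the level was 2.50-fold higher than with MS-275 (adjusted p = 0.0107). With MS-275 the change was −0.05 (95% interval −0.63 to 0.54), with NB4 at 0.39 and U937 at −0.54.

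MVK phosphorylates mevalonate and measured 8.59, 7.43 and 8.0 with SAHA, 6.64, 6.49 and 6.21 with MS-275, and 7.06, 6.96 and 6.71 in untreated cells. All 3 SAHA levels stood above every other level, and all 3 MS-275 levels stood below every untreated one. It rose 2.13-fold with SAHA (log2 1.09 ± 0.22, adjusted p = 0.013), while the MS-275 change of −0.47 ± 0.22 missed the threshold (adjusted p = 0.202). MVK was the one member with all 3 MS-275 levels under the untreated ones (2.86% of members, 7.29% of genes). The inhibitors differed by 1.56 ± 0.22 (2.95-fold, adjusted p = 0.00465).

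IDI1, the isomerase that makes dimethylallyl pyrophosphate, had 7.77, 9.10 and 9.15 with SAHA, 6.04, 6.98 and 7.29 with MS-275, and 6.74, 7.65 and 7.44 in untreated cells. SAHA levels lay above all others, and each line was lowest with MS-275. SAHA raised it 2.63-fold (log2 1.40 ± 0.17, adjusted p = 0.00248), and its gap between inhibitors was the widest of any member at 3.73-fold (log2 1.90 ± 0.17, adjusted p = 0.00201). Its change with MS-275 was −0.50 ± 0.17 (adjusted p = 0.0935), which passed the test when arrays were scaled to equal medians (−0.58, adjusted p = 0.0481).

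MVD, the decarboxylase that yields isopentenyl pyrophosphate, had 8.35, 9.28 and 8.32 with SAHA, 7.0, 9.17 and 7.11 with MS-275, and 7.28, 9.03 and 7.53 in untreated cells. NB4 and U937 were highest with SAHA, while K562, which had the top level in every treatment, had steps of 0.25 over untreated and 0.11 over MS-275. Its difference between inhibitors passed (1.85-fold, log2 0.89 ± 0.24, adjusted p = 0.0351), and its change with SAHA did not (0.70 ± 0.24, adjusted p = 0.0718). Without the K562 arrays the SAHA change was 0.92 and passed (adjusted p = 0.0263). ACAT2, PMVK and FDPS, which make acetoacetyl-CoA, phosphorylate mevalonate phosphate and build farnesyl pyrophosphate, changed by −0.04 to 0.16 with SAHA and by −0.01 to 0.35 with MS-275, with none past the test.

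Leaving out a line leaves fewer arrays, and over all genes the 2665 calls with SAHA became 887 without NB4, 1681 without K562 and 1069 without U937. With SAHA and without NB4, HMGCS1 stood at 1.16 (adjusted p = 0.0929) and MVK at 0.88 (adjusted p = 0.11), and without U937 MVK stood at 1.00 (adjusted p = 0.112). Between inhibitors, the call was lost without NB4 for HMGCS1 (1.42, adjusted p = 0.0602) and MVD (0.66, adjusted p = 0.208), and without U937 for HMGCS1 (0.96, adjusted p = 0.0742), MVK (1.45, adjusted p = 0.0631) and MVD (0.73, adjusted p = 0.227). With no detection filter, which adds genes to the adjustment, MVD missed it too (adjusted p = 0.0603). IDI1 passed both tests whichever line was left out.

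Among the enzymes that lead from squalene to cholesterol, all 10 tested had a positive change with SAHA, with a median of 0.76 on the log2 scale. SQLE, the squalene epoxidase, had 8.53, 9.66 and 10.28 with SAHA, 8.05, 9.24 and 8.86 with MS-275, and 7.76, 8.97 and 8.64 in untreated cells. It was highest with SAHA in each line and the widest step was in U937, at 1.64. The rise was 2.04-fold (log2 1.03 ± 0.22, adjusted p = 0.0161), and the lead over MS-275 was 1.70-fold (adjusted p = 0.0445).

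LSS, which folds oxidosqualene into lanosterol, had 10.46, 10.83 and 11.26 with SAHA, 9.14, 9.81 and 10.05 with MS-275, and 9.25, 9.97 and 10.18 in untreated cells. SAHA levels lay above all 6 other levels, and MS-275 levels were within 0.15 of the untreated level in every line. LSS rose 2.07-fold with SAHA (log2 1.05 ± 0.13, adjusted p = 0.00247) and was 2.27-fold above MS-275 (adjusted p = 0.00227). Its dimmer probes rose by 0.64 (adjusted p = 0.0295) and showed 0.57 (adjusted p = 0.0608) with SAHA.

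TM7SF2, a sterol C14 reductase, showed the steepest rise of all members, with 10.06, 10.08 and 7.15 on SAHA arrays, 8.34, 9.30 and 6.19 on MS-275 arrays, and 7.59, 8.56 and 6.11 on untreated arrays. Each line was highest with SAHA, and U937 was so low throughout that the groups overlapped. The rise was 3.20-fold (log2 1.68 ± 0.26, adjusted p = 0.00555), and SAHA exceeded MS-275 2.23-fold (adjusted p = 0.0211). With MS-275 the change of 0.52 did not pass (95% interval −0.10 to 1.14, adjusted p = 0.229).

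MSMO1, the C4-methylsterol oxidase, had 9.19, 9.38 and 9.76 with SAHA, 8.52, 8.78 and 9.13 with MS-275, and 7.69, 8.74 and 7.84 in untreated cells. SAHA levels were above all others, and MS-275 levels lay between the other treatments in each line. It rose 2.55-fold with SAHA (log2 1.35 ± 0.25, adjusted p = 0.00966). Its value with MS-275 was 0.72 ± 0.25 (adjusted p = 0.106), and the difference between inhibitors was 0.63 (95% interval 0.04 to 1.22, adjusted p = 0.112), so neither passed. A second probe rose by 1.04 with SAHA (adjusted p = 0.0191).

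NSDHL, which works on the same C4 demethylation, was the one member that rose with SAHA and fell with MS-275. It had 10.90, 11.77 and 11.86 with SAHA, 9.62, 10.70 and 10.78 with MS-275, and 10.31, 11.29 and 11.49 in untreated cells. All 3 lines stood in the same order, SAHA highest and MS-275 lowest. The rise with SAHA was 1.39-fold (log2 0.48 ± 0.12, adjusted p = 0.0275) and the fall with MS-275 was 1.59-fold (log2 −0.67 ± 0.12, adjusted p = 0.0195). The inhibitors differed 2.21-fold (log2 1.14 ± 0.12, adjusted p = 0.00227), and this difference passed whichever line was left out.

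EBP, the sterol isomerase, had 12.11, 12.40 and 12.50 with SAHA, 11.75, 12.23 and 12.05 with MS-275, and 11.57, 11.79 and 11.72 in untreated cells. SAHA levels lay above the untreated ones and overlapped those with MS-275. It rose 1.56-fold with SAHA (log2 0.64 ± 0.12, adjusted p = 0.0112), with a difference of 0.32 from MS-275 (95% interval 0.03 to 0.62, adjusted p = 0.101). SC5D, the lathosterol oxidase, had 9.18, 9.49 and 9.77 with SAHA, 8.44, 8.86 and 8.71 with MS-275, and 8.24, 9.19 and 8.38 in untreated cells. Its SAHA levels lay above all MS-275 levels, and untreated K562 reached the level of SAHA-treated NB4. SC5D rose 1.84-fold with SAHA (log2 0.88 ± 0.20, adjusted p = 0.0203) and led MS-275 1.75-fold (adjusted p = 0.0281), while its dimmer tested probe did not follow (−0.07, adjusted p = 0.799).

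CYP51A1, HSD17B7 and DHCR7, a lanosterol demethylase and reductases of later steps, had SAHA changes of 0.40, 0.39 and 0.56 with adjusted p of 0.214, 0.0533 and 0.0605. HSD17B7 and DHCR7 passed under some other settings, for example without background correction (0.37, adjusted p = 0.0219, and 0.52, adjusted p = 0.0453). With MS-275 these genes changed by 0.33, 0.24 and 0.11, and none passed.

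With SAHA and 1 line left out, some enzymes of this branch missed the threshold. The call was lost without NB4 for SQLE (1.16, adjusted p = 0.0791), MSMO1 (1.28, adjusted p = 0.0971), NSDHL (0.42, adjusted p = 0.176), EBP (0.69, adjusted p = 0.0728) and SC5D (0.85, adjusted p = 0.141). It was lost without U937 for SQLE (0.72, adjusted p = 0.0567), MSMO1 (1.06, adjusted p = 0.0719), NSDHL (0.53, adjusted p = 0.114), EBP (0.57, adjusted p = 0.102) and SC5D (0.62, adjusted p = 0.145), and without K562 for NSDHL (0.48, adjusted p = 0.116) and EBP (0.66, adjusted p = 0.0532). NSDHL and EBP also missed the threshold after scaling to equal medians (0.27, adjusted p = 0.2, and 0.44, adjusted p = 0.068). LSS and TM7SF2 passed with SAHA whichever line was left out.

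The MS-275 fall of NSDHL missed the threshold with any 1 line left out: it stood at −0.65 when NB4 was left out (adjusted p = 0.129), at −0.70 when K562 was (adjusted p = 0.0855) and at −0.64 when U937 was (adjusted p = 0.13). Between inhibitors, SQLE and TM7SF2 missed the threshold whichever line was left out, at 0.91 and 0.87 without NB4 (adjusted p = 0.123 and 0.0745), 0.94 and 1.34 without K562 (adjusted p = 0.0783 and 0.0598), and 0.44 and 1.25 without U937 (adjusted p = 0.165 and 0.0725). With no detection filter SQLE also missed it (adjusted p = 0.0722). SC5D stood at 0.85 without NB4 (adjusted p = 0.134) and 0.68 without U937 (adjusted p = 0.13).

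**Figure D2:**
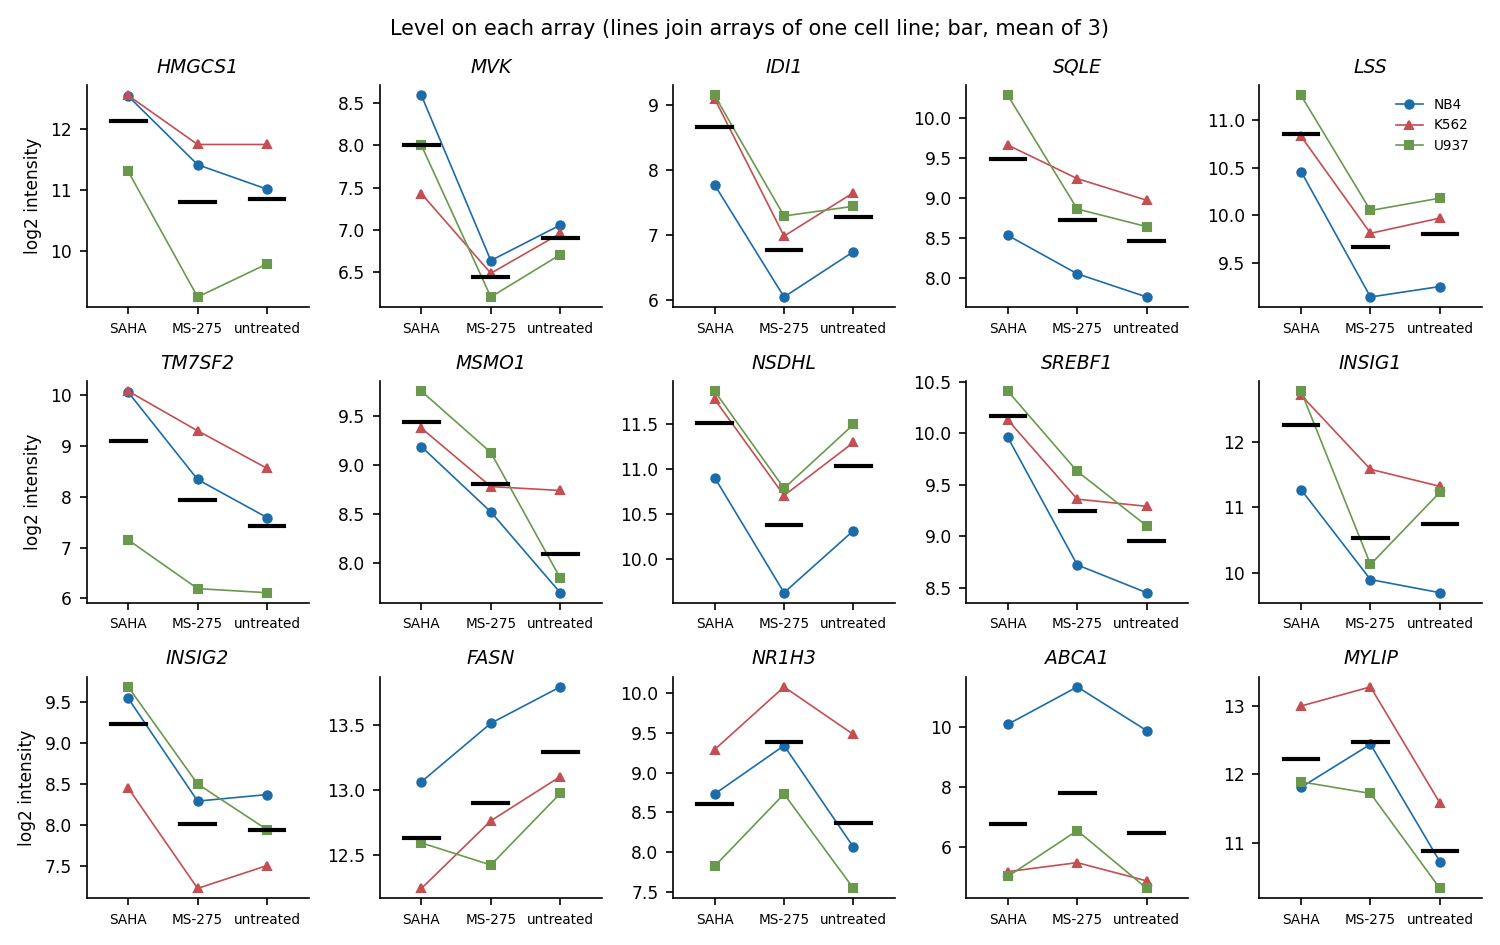
Log2 intensity of 15 members on each array with SAHA, MS-275 and no treatment; lines join the arrays of one cell line, and black bars are means of 3. For IDI1, LSS and SREBF1 all SAHA points lie above all other points, NSDHL is lowest with MS-275 in every line, and ABCA1 in NB4 lies far above the other lines.

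The regulators divided by gene. SREBF1, the precursor gene of SREBP-1, had 9.96, 10.13 and 10.41 with SAHA, 8.72, 9.36 and 9.63 with MS-275, and 8.45, 9.29 and 9.10 in untreated cells. SAHA levels stood above all 6 others. It rose 2.33-fold (log2 1.22 ± 0.17, adjusted p = 0.00339) and exceeded MS-275 1.91-fold (adjusted p = 0.00903). A dimmer probe was detected on all 3 SAHA arrays and was not well above background on any other array. Its fitted differences were 0.81 over untreated cells and 0.78 over MS-275. This probe met the filter of 3 arrays only through the SAHA arrays, so its p-values are not given as further support. Detection alone put it at least 1.26-fold higher than in untreated cells and at least 1.31-fold higher than with MS-275. Such bounds set the mean of the brighter group against the lowest detected signal of the dimmer group's arrays.

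SREBF2, the precursor gene of SREBP-2, the main driver of sterol synthesis, had 9.46, 8.63 and 9.01 with SAHA, 9.58, 9.24 and 9.40 with MS-275, and 9.42, 8.84 and 9.01 in untreated cells. SAHA and untreated levels nearly coincided in NB4 and U937. The change with SAHA was −0.05 (95% interval −0.37 to 0.26, adjusted p = 0.814), and with MS-275 it was 0.32 (95% interval 0.00 to 0.64, adjusted p = 0.162). SCAP, the escort protein, changed by 0.30 with SAHA and 0.09 with MS-275 (adjusted p = 0.121 and 0.654), although its SAHA levels of 12.08, 12.08 and 12.00 lay above its untreated levels of 11.85, 11.80 and 11.61.

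INSIG1, itself a target of SREBPs, had 11.27, 12.71 and 12.77 with SAHA, 9.90, 11.58 and 10.13 with MS-275, and 9.70, 11.32 and 11.23 in untreated cells. The steps with SAHA were alike in size (1.57, 1.39 and 1.54), while MS-275 gave 0.20 and 0.26 in NB4 and K562 and −1.10 in U937. It rose 2.83-fold with SAHA (log2 1.50 ± 0.30, adjusted p = 0.0124) and led MS-275 3.27-fold (adjusted p = 0.00862). Its dimmer probe rose by 0.68 with SAHA (adjusted p = 0.0142) but did not pass between inhibitors (0.31, adjusted p = 0.155). In U937 that probe read 9.21 with MS-275 and 9.04 in untreated cells, so it did not share the fall seen there.

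INSIG2, the second retention protein, had 9.55, 8.45 and 9.69 with SAHA, 8.29, 7.22 and 8.50 with MS-275, and 8.37, 7.50 and 7.94 in untreated cells. SAHA levels were above all untreated ones. It rose 2.45-fold (log2 1.29 ± 0.19, adjusted p = 0.00402), and SAHA exceeded MS-275 by almost the same step in each line (1.25, 1.23 and 1.19; 2.34-fold, adjusted p = 0.00562). Without NB4, INSIG1 missed the threshold with SAHA (1.46, adjusted p = 0.0914) and between inhibitors (1.88, adjusted p = 0.0555), and INSIG2 between inhibitors (1.21, adjusted p = 0.0566). SREBF1 missed it between inhibitors without NB4 (0.78, adjusted p = 0.0756) and without U937 (1.01, adjusted p = 0.0658), and passed with SAHA whichever line was left out, as did INSIG2.

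NPC1 and NPC2, which move cholesterol out of lysosomes, did not pass any comparison of treatments. NPC1 had 9.61, 9.65 and 11.55 with SAHA, 8.41, 8.95 and 11.42 with MS-275, and 8.48, 8.78 and 11.61 in untreated cells. NPC2 had 12.31, 12.91 and 14.35 with SAHA, 11.54, 12.42 and 14.25 with MS-275, and 10.86, 12.33 and 14.23 in untreated cells. Both were higher with SAHA in NB4 and K562 and nearly level in U937, the line with the most of either transcript. Their SAHA changes were 0.65 ± 0.24 and 0.72 ± 0.23 (adjusted p = 0.0917 and 0.0645), and NPC1 passed without U937 (1.00, adjusted p = 0.0443).

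Of the 7 fatty acid genes, 1 fell with SAHA and the other 6 did not pass. FASN, the fatty acid synthase, had 13.06, 12.24 and 12.59 with SAHA, 13.51, 12.76 and 12.42 with MS-275, and 13.79, 13.10 and 12.97 in untreated cells. Each line was highest when untreated, and the groups overlapped. It fell 1.58-fold with SAHA (log2 −0.66 ± 0.16, adjusted p = 0.0258), and with MS-275 it stood at −0.39 ± 0.16 (adjusted p = 0.154). The fall with SAHA missed the threshold without NB4 (−0.62, adjusted p = 0.156) and without K562 (−0.55, adjusted p = 0.138).

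FADS2, the delta-6 desaturase, had 6.98, 5.38 and 6.97 with SAHA, 7.40, 5.80 and 7.56 with MS-275, and 7.34, 5.87 and 7.18 in untreated cells. It was lowest with SAHA in each line. It passed only between the inhibitors (1.39-fold lower with SAHA, log2 −0.48 ± 0.13, adjusted p = 0.039), and it missed the threshold whichever line was left out (−0.51 with NB4 left out, −0.50 with K562 out and −0.42 with U937 out, adjusted p = 0.152, 0.107 and 0.188) and after scaling to equal medians (−0.43, adjusted p = 0.057). It also missed it without background correction (−0.29, adjusted p = 0.0584), with the authors' processed values (−0.29, adjusted p = 0.0586) and with the other variance prior (adjusted p = 0.0758), and passed in 3 of 11 alternatives.

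ACLY, ACACA, SCD, ELOVL6 and FADS1, which supply acetyl-CoA, make malonyl-CoA, and desaturate or lengthen fatty acids, passed in no comparison of treatments. ACLY had the one sizeable positive SAHA change (0.46 ± 0.17, adjusted p = 0.0843), with 0.02 in NB4, 0.72 in K562 and 0.66 in U937. ACACA, ELOVL6 and FADS1 had SAHA changes of −0.27, −0.29 and −0.51, and SCD had 0.02 (95% interval −0.27 to 0.31). FADS1 had the widest spread of SAHA changes over the lines, at 0.18 in NB4, −1.40 in K562 and −0.31 in U937.

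Of the 4 tested genes of the LXR group, 3 rose with MS-275 and 1 with SAHA, and 2 were lower with SAHA than with MS-275. NR1H3, which encodes LXR-alpha, had 8.73, 9.29 and 7.82 with SAHA, 9.34, 10.08 and 8.73 with MS-275, and 8.06, 9.48 and 7.54 in untreated cells. MS-275 gave the top level in each line, and differences between lines made the groups overlap. It rose 2.04-fold with MS-275 (log2 1.03 ± 0.18, adjusted p = 0.0194) and showed 0.25 ± 0.18 with SAHA (adjusted p = 0.361). SAHA stood 1.71-fold below MS-275 (log2 −0.77 ± 0.18, adjusted p = 0.0237).

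ABCA1, the pump that loads cholesterol onto apolipoproteins, had 10.10, 5.18 and 5.02 with SAHA, 11.35, 5.48 and 6.55 with MS-275, and 9.89, 4.87 and 4.62 in untreated cells. NB4 was far above the other lines, and the probe was detected on all 3 MS-275 arrays but on 1 of 3 SAHA and 1 of 3 untreated arrays, those of NB4. It rose 2.52-fold with MS-275 (log2 1.33 ± 0.26, adjusted p = 0.0229), and SAHA stood 2.04-fold below MS-275 (log2 −1.03 ± 0.26, adjusted p = 0.028). In K562 and U937 the change is measured against a signal not well above background. The ABCA1 probe met the filter of 3 arrays only with the MS-275 arrays counted, which limits what its calls can show. With no filter, its rise with MS-275 still passed and its difference between inhibitors did not. ABCG1, a related transporter, changed by 0.46 ± 0.16 with MS-275 (adjusted p = 0.108) and by 0.07 with SAHA.

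MYLIP (IDOL), a ubiquitin ligase that targets lipoprotein receptors, was the one member that rose with both inhibitors. It had 11.81, 13.00 and 11.89 with SAHA, 12.44, 13.28 and 11.72 with MS-275, and 10.72, 11.58 and 10.33 in untreated cells. Both treated groups lay above all untreated levels. The rises were 2.56-fold with SAHA (log2 1.36 ± 0.17, adjusted p = 0.00261) and 3.03-fold with MS-275 (log2 1.60 ± 0.17, adjusted p = 0.00653). Their difference was −0.24 (SAHA minus MS-275, 95% interval −0.63 to 0.15, adjusted p = 0.324).

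With MS-275 and without NB4, NR1H3 stood at 0.90 (adjusted p = 0.122), ABCA1 at 1.27 (adjusted p = 0.151) and MYLIP at 1.54 (adjusted p = 0.0731), and without U937 they stood at 0.94, 1.04 and 1.71 (adjusted p = 0.136, 0.136 and 0.0654). Between inhibitors, NR1H3 stood at −0.85 without NB4 and −0.70 without U937 (adjusted p = 0.0721 and 0.166), and ABCA1 at −0.91 and −0.78 (adjusted p = 0.175 and 0.164). Without background correction the ABCA1 difference was −0.69 (adjusted p = 0.052). It also missed the threshold with no detection filter (adjusted p = 0.0517) and with the authors' processed values (adjusted p = 0.0514). The ABCA1 difference between inhibitors passed in 4 of 10 alternatives. The SAHA rise of MYLIP passed whichever line was left out.

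**Figure D3:**
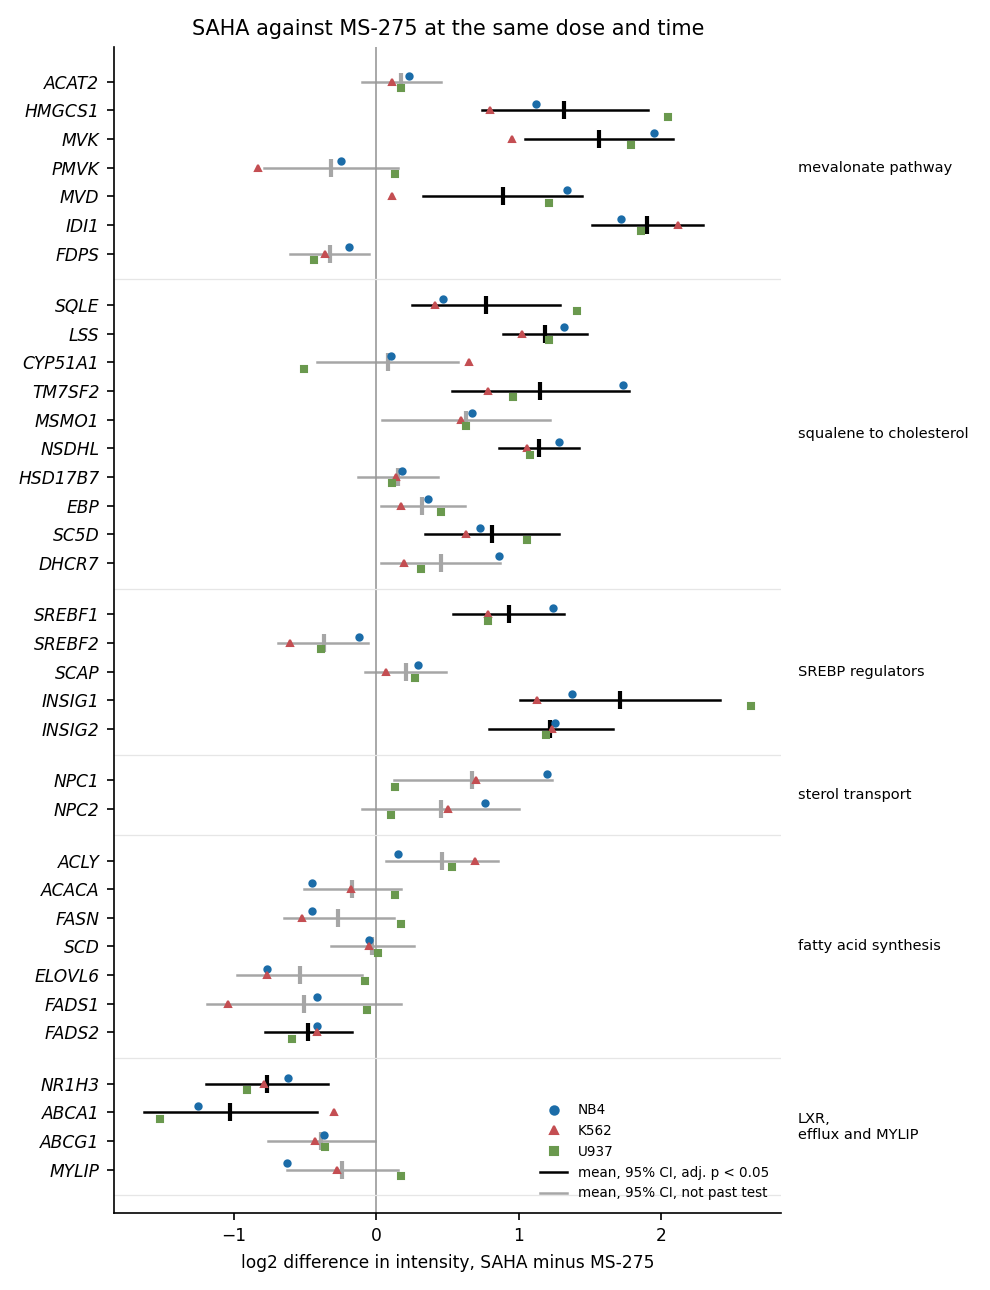
Log2 difference between SAHA and MS-275 for each tested member; markers are the 3 lines, the tick is the fitted mean and the bar its 95% confidence interval, black where the limma adjusted p is under 0.05. INSIG1 in U937 reaches 2.63 and IDI1 has the highest mean at 1.90, while FADS2, NR1H3 and ABCA1 are the black bars below 0.

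Whether the response to either inhibitor depended on the line was asked with an F test of line by treated against untreated, in which 0 of 11228 genes and 0 of 35 members passed. At an unadjusted p under 0.05 there were 171 genes and 0 members, and the smallest p of a member was 0.248. The test pooled both inhibitors as treated, so its 3 residual degrees of freedom also held the difference between the inhibitors. It could therefore miss a dependence on line, and no conclusion about a like response of the lines is drawn from it.

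Levels between lines differed for many genes, members included. Between NB4 and K562, 7 members were higher in NB4 and 16 lower, where 50.4% of all genes passed (26.2% upward and 24.2% downward). NB4 against U937 gave 10 higher and 13 lower, against 44.8% of genes (23.5% upward and 21.3% downward). K562 against U937 gave 9 higher and 6 lower, against 53.5% of genes (27.7% upward and 25.8% downward). The shares of members were 65.7%, 65.7% and 42.9%. With 1 array of each line per treatment, each line's mean is over 3 treatments.

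ABCA1 showed the widest gap between lines of any member. Its level was 10.45 ± 0.79 in NB4, 5.17 ± 0.31 in K562 and 5.40 ± 1.02 in U937 (SD, n = 3), and the probe was detected on 3 of 3 NB4 arrays and on 1 of 3 in each other line. NB4 stood 38.6-fold above K562 and 33.1-fold above U937, folds that rest on signals near background in those lines. The ABCA1 probe met the filter only with the NB4 arrays counted, so p-values of these gaps are not given. ELOVL6, a fatty acid elongase, was detected on all 3 arrays of NB4 and K562 and on 0 of 3 in U937. That put NB4 at least 2.57-fold and K562 at least 11.5-fold above U937. The fitted differences, which use the undetected U937 signal, were 3.41-fold and 15.3-fold (limma adjusted p = 0.00034 and 3.7e-06).

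The lysosomal cholesterol genes marked U937. NPC1 averaged 8.83 ± 0.68 in NB4, 9.12 ± 0.46 in K562 and 11.53 ± 0.10 in U937, and NPC2 averaged 11.57 ± 0.72, 12.55 ± 0.32 and 14.28 ± 0.07 in the same order (SD, n = 3). NB4 lay 6.46-fold and 6.54-fold below U937 for these genes, and K562 lay 5.28-fold and 3.31-fold below it (adjusted p from 0.000135 to 0.000699). SCD, the delta-9 desaturase, was ordered NB4, K562, U937 from low to high, at 12.18 ± 0.08, 12.88 ± 0.06 and 13.96 ± 0.09, and all neighbours differed (adjusted p = 0.00272 and 0.000303).

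FADS1 and FADS2 were ordered differently by line. FADS1 was highest in K562, 6.22-fold above NB4 and 3.47-fold above U937 (adjusted p = 0.000294 and 0.00161), whereas FADS2 was lowest there, 2.94-fold below NB4 and 2.93-fold below U937 (adjusted p = 7.94e-05 and 6.99e-05). FADS2 did not differ detectably between NB4 and U937 (0.00, adjusted p = 0.981). TM7SF2 was lowest in U937, with NB4 4.52-fold and K562 7.09-fold above it (adjusted p = 0.000611 and 0.000116). HMGCS1 was also lowest in U937, with NB4 2.90-fold and K562 3.71-fold above it (adjusted p = 0.00231 and 0.000617).

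Several sterol enzymes were lowest in NB4. IDI1, SQLE and NSDHL lay 2.08-fold, 2.26-fold and 1.97-fold below K562 in NB4, and 2.15-fold, 2.21-fold and 2.14-fold below U937 (adjusted p from 0.000374 to 0.00492), and none of these genes passed between K562 and U937. Of the 10 genes from squalene to cholesterol, 0 were higher and 4 lower in NB4 than in K562 (26.2% and 24.2% of all genes), and 2 were higher and 4 lower in NB4 than in U937 (23.5% and 21.3% of all genes). The fatty acid genes ACLY, ACACA and FASN were higher in NB4 than in K562 (1.54-fold, 1.56-fold and 1.69-fold) and than in U937 (1.40-fold, 3.51-fold and 1.74-fold), with adjusted p from 9.83e-05 to 0.0489.

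**Figure D4:**
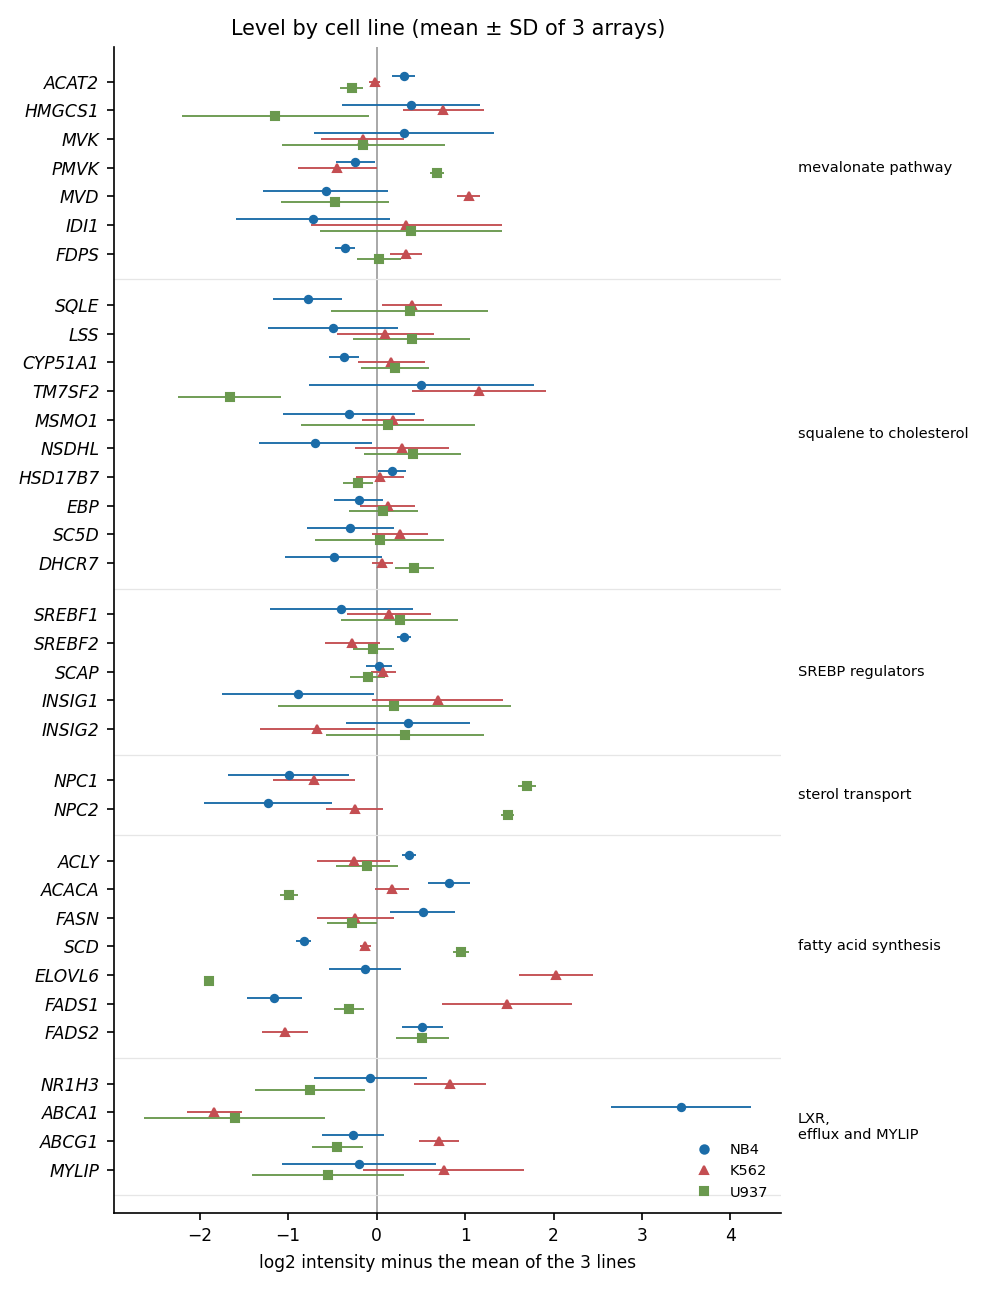
Log2 intensity of each tested member in NB4, K562 and U937 minus the mean of the 3 lines; points are means of 3 arrays, 1 per treatment, and bars are SD. ABCA1 in NB4 stands furthest from the other lines, NPC1, NPC2 and SCD are highest in U937, and ELOVL6 and FADS1 are highest in K562.

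Other genes of the same pathways were listed with earlier results known. Of 48 listed, 44 were on the array and 39 were tested. With SAHA 8 rose and 6 fell, where 12.0% of all genes rose and 11.8% fell. With MS-275 3 rose and 2 fell, where 4.34% of all genes rose and 7.46% fell. Between inhibitors 4 were higher and 5 lower with SAHA, where 13.4% of all genes were higher and 10.2% lower. Their median change was 0.04 with SAHA and 0.08 with MS-275. STARD5, a cholesterol-binding carrier, rose 5.33-fold with SAHA (8.67, 9.07 and 10.44, against 6.10, 7.04 and 7.79 in untreated cells, adjusted p = 0.00274) and 2.31-fold with MS-275 (adjusted p = 0.045), and its difference between inhibitors was 1.21 (adjusted p = 0.0283).

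LPCAT3, a phospholipid acyltransferase known as an LXR target, rose 2.90-fold with SAHA (adjusted p = 0.00326) and did not pass with MS-275 (0.66, adjusted p = 0.0802). NCEH1, a cholesteryl ester hydrolase, rose 2.42-fold with SAHA (adjusted p = 0.00501). ACACB, the mitochondrial acetyl-CoA carboxylase, rose with SAHA and MS-275 alike in sign, 2.13-fold and 2.49-fold (adjusted p = 0.00345 and 0.00735).

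LRP8, a lipoprotein receptor, had the steepest falls of that list, 3.42-fold with SAHA and 3.89-fold with MS-275 (adjusted p = 0.00164 and 0.00523). Its levels were 7.32, 7.19 and 8.21 with SAHA, 7.15, 7.08 and 7.93 with MS-275, and 9.25, 8.62 and 10.16 in untreated cells, with every treated level below every untreated one. ERLIN1, a sterol-binding protein of the endoplasmic reticulum, and RXRA, the nuclear partner of LXRs, fell 2.36-fold and 2.24-fold with SAHA (adjusted p = 0.00277 and 0.00687). ERLIN1 also fell with MS-275 (log2 −0.85, adjusted p = 0.0204).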

How the data were processed

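Trizol RNA of 9 cultures was cleaned and DNase-treated, turned into biotinylated cRNA and put on bead arrays, per the labels' protocols. The authors deposited bead intensity per probe, which was not background-corrected or normalized, as found from its values. They also deposited a detection p-value per probe, and log2 values processed with lumi, per the submitters' processing notes; for all 199593 values, quantile normalization of the log2 intensities gave the same number within 0.001. The tables name probes differently and were joined on a probe's ranks over the 9 arrays, unique for all 22177 probes. Of these, 19708 have a gene symbol here.

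Intensities were background-corrected (limma 3.58.1 in R 4.3.3, nec, offset 16), then quantile-normalized and logged to base 2. Probes with a detection p-value under 0.05 on at least 3 of 9 arrays were kept, and 11228 genes were each represented by their brightest probe. limma fitted an additive model of treatment and line (4 residual degrees of freedom), with two-sided p-values adjusted after Benjamini and Hochberg over all genes. A gene passed at an adjusted p under 0.05, and errors of changes are SE. Nothing in the labels says that lines were cultured independently more than once. The p-values of treatments therefore measure how far the changes varied between these lines. Those of comparisons between lines measure how far the line differences varied over the treatments.

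The labels number every array as replicate 1, so the pairing comes from the cell line. Deviations from the treatment means correlated at 0.865 to 0.933 within a line and at −0.695 to −0.171 across lines. Distinct cell lines centred on treatment means would give this pattern in any case, so it is no test of the pairing. No slide or date is given, so batches could not be tested. Members, other pathway genes, marker lists and alternatives were chosen with earlier results of these data known. Members past the test in any comparison of treatments were described on every array, and genes outside the list were named when they passed with at least a 2-fold change. The scripts were tested on simulated data. Alternatives were scaling to equal medians, no background correction, an offset of 50, no filter, probes detected on all 9 arrays, every probe on its own, the authors' log2 values, another variance prior, no replicate block and leaving out each line. Promoter windows came from RefSeq, and figures were drawn with matplotlib 3.10.9. FDFT1 and NR1H2 were not analysed here.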

Additional observations from a re-analysis of the deposited data

Results flagged for a closer look

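For 4 members, both treated arrays of one line lay on one side of the untreated array and both treated arrays of another line on the other side. These differences between single lines were not tested gene by gene beyond the F test of line by treatment, in which no member passed and the smallest unadjusted p of a member was 0.248.

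PMVK, the phosphomevalonate kinase, had log2 changes of 0.20 with SAHA and 0.45 with MS-275 in NB4, against −0.01 and −0.13 in U937. NPC1, the lysosomal cholesterol transporter, had 0.87 with SAHA and 0.17 with MS-275 in K562, against −0.06 and −0.19 in U937. SCD, the delta-9 desaturase, had −0.16 and −0.11 in NB4, with 0.08 and 0.13 in K562 and 0.15 and 0.14 in U937 (SAHA and MS-275 in that order). FADS1, the delta-5 desaturase, had 0.18 and 0.60 in NB4, with −1.40 and −0.35 in K562 and −0.31 and −0.25 in U937. The changes of SCD and of PMVK in U937 were no larger than the median SE of 0.17.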

How the results depend on the processing

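In the 3 comparisons of treatments, no change of a member that passed the test turned its direction under the 11 alternatives that give 1 value per gene; with every probe on its own, the dimmer tested probe of SC5D was at −0.07 with SAHA, against 0.88 for the reported probe. Directions between lines were not followed over the alternatives, and the cause of the shifts that follow was not tested. Over the processing alternatives that give 1 value per gene, 13 to 19 members passed with SAHA (15 as reported). With MS-275 3 to 5 passed (4 as reported), and between inhibitors 13 to 15 (15 as reported). Between lines 23 to 26 passed for NB4 against K562, 21 to 23 for NB4 against U937 and 14 to 18 for K562 against U937. With every probe on its own, the count is of members' probes: 19 with SAHA, 4 with MS-275 and 18 between inhibitors. Leaving out 1 line, which leaves fewer samples, gave 6 (without NB4) to 13 members with SAHA, 0 (without NB4 and without U937) to 3 with MS-275 and 4 (without NB4) to 12 between inhibitors; over all genes these ranges were 887 to 1681, 0 to 237 and 511 to 1724, against 2665, 1325 and 2649. With no replicate block, which leaves the differences between lines in the spread, 0, 0 and 0 members (9, 1 and 8 at an unadjusted p under 0.05) and 101, 2 and 72 genes passed in limma. Scaling to equal medians moved the median of all genes to −0.09 with SAHA and −0.14 with MS-275, raised the MS-275 count to 2215 genes, and cut the share of upward calls to 35.6% with SAHA and 16.8% with MS-275, against 50.4% and 36.8%. The rises of IDI1, LSS, TM7SF2, SREBF1, INSIG2 and MYLIP with SAHA passed in those 11 alternatives except the one with no replicate block; with every probe on its own, 1 dimmer probe of LSS did not pass (0.57, adjusted p = 0.0608). Dim probes such as those of ABCA1 outside NB4 and ELOVL6 in U937 limit what their folds can show.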
